A study of Mus musculus with 6 samples.

Results

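The genes described here are 37 members of the p53 pathway and of the apoptosis machinery it acts on, out of 52550 genes quantified by RNA-seq in 6 mouse medulloblastomas. They were taken by exact gene symbol and fall into 4 classes: p53 and its regulators (4 genes), the BCL2 family (13), caspases and the apoptosome (5), and p53 targets (15). All 37 symbols were found, and 36 had enough counts to test. Bik, at 2 to 7 estimated counts per library, did not.

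Medulloblastoma arises in the cerebellum and is malignant. The comparison was of 3 tumours labelled wild type for Eed with 3 labelled Eed mutant. Eed is needed by the Polycomb enzyme PRC2, which methylates histone H3 at genes it silences. The allele, the promoter driving any recombinase, the tumour model, and the age and strain of the animals are not given in any source used here, and no label states whether each tumour is from a different animal. The p-values therefore measure only the spread between these samples, which may be technical in part. Xist RNA was high in wild-type replicate 3 and in mutant replicates 1 and 2, and low in the other libraries. Neither group is thus only repeats of the same sample. Eed RNA itself was at 43.8, 30.1 and 35.6 CPM in wild type and 32.6, 36.8 and 30.7 CPM in the mutants (CPM being estimated counts scaled to a common library size with TMM factors). These groups overlapped, and without the allele it is not known whether RNA level can check the labels. All 11 listed markers of the cerebellar granule cell progenitor were at 12.6 CPM or more in each of the 6 libraries. They summed to 4240 to 4651 CPM in wild type and 4594 to 4820 CPM in the mutants. No normal tissue was compared, so these levels cannot check the tumour label. Atoh1 was at 116, 75.3 and 127 CPM in wild type and 172, 172 and 137 CPM in the mutants.

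The p53 protein is a transcription factor that is kept low by the ubiquitin ligase Mdm2 and the related inhibitor Mdm4, and accumulates after DNA damage and other stress. It is controlled largely at the level of protein stability, so its RNA level is no measure of its activity, and its target genes are the usual readout in RNA data. Apoptosis runs by 2 routes. In the mitochondrial route, BH3-only proteins relieve the hold of the guardians (Bcl2, Bcl-xL, Mcl1) on the effectors Bax and Bak, and released cytochrome c assembles the apoptosome with Apaf1 and caspase-9. In the death receptor route, surface receptors such as Fas and the TRAIL receptor recruit caspase-8. Cerebellar granule cell progenitors are known to be sensitive to p53-dependent death after irradiation.

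Depth was 26186236 to 26425111 estimated counts per library. edgeR's quasi-likelihood test, with Benjamini-Hochberg adjustment at 0.05, called 0 of the 36 members and 0 of all 19145 genes tested (0% called), and the smallest adjusted p among members was 0.134. At an unadjusted p under 0.05 there were 12 members, or 33.3%, against 18.1% of all genes. The 12 members were 10 higher in the mutants (27.8%, against 9.29% of all genes) and 2 lower (5.56%, against 8.78%). With library size as the only scaling, the split was 10 higher and 4 lower, and on log2(TPM + 1) in limma it was 7 and 4. DESeq2, a second count test, called 6 members higher and 1 lower of 36, or 19.4%, against 5.7% of the 16200 genes it tested (3.19% higher and 2.51% lower). Groups did not overlap for 16 of 36 members (44.4%), against 25% of all genes. Of these, 11 were higher (13.1% of all genes were) and 5 lower (11.9%). On the TPM scale (an abundance that corrects for transcript length) 9 were higher and 8 lower. With 1 library left out, DESeq2 called 3, 3 and 5 members when wild-type replicates 1, 2 and 3 in turn were dropped, and 3 when mutant replicate 2 was. In the same order these fits called 5.38%, 3.5%, 7.48% and 4.23% of the genes they tested. Without mutant replicate 1 or without mutant replicate 3 it called 0 members, where 212 and 314 genes in all were called (1.07% and 1.89%). Members at an unadjusted p under 0.05 in edgeR numbered 8 without mutant replicate 1.

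**Figure D1:**
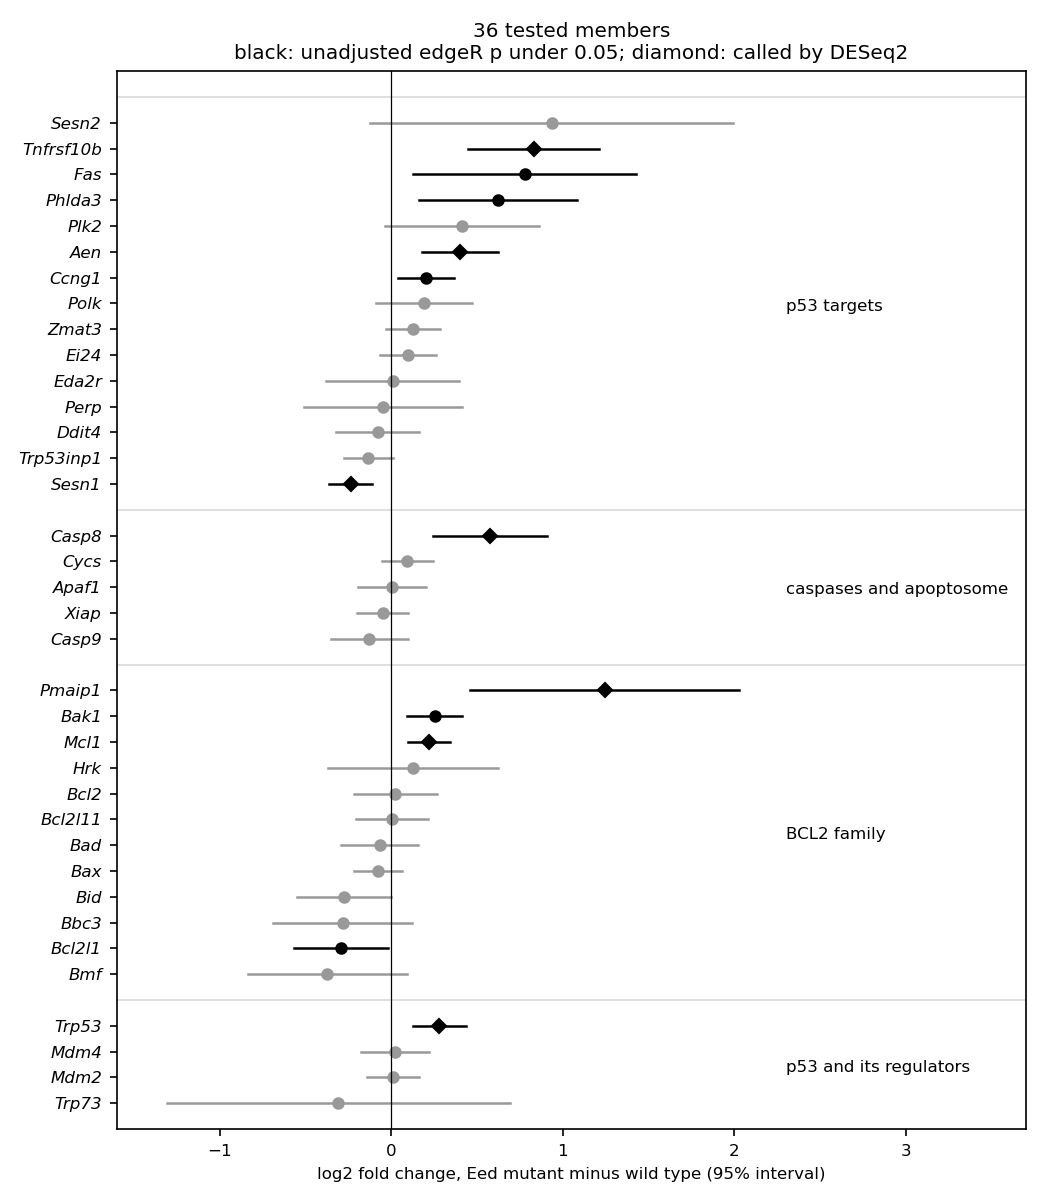
Log2 fold change (Eed mutant minus wild type) of the 36 tested members by class, with the 95% interval from the edgeR fit. Black marks an unadjusted p under 0.05 and a diamond a DESeq2 call. Of the black symbols 10 lie right of 0 and 2, Sesn1 and Bcl2l1, lie left of it, and the median over the class was 0.19 for p53 targets, -0.03 for the BCL2 family and 0.01 for caspases and the apoptosome.

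Trp53 itself (ENSMUSG00000059552.13, chromosome 11, 69580359 to 69591873, GRCm38) had the highest mean level per length of all 37 members, at 110 to 145 TPM. Replicates 1 to 3 of wild type were at 134, 118 and 133 CPM, and those of the mutants, in the same order used throughout, at 157, 154 and 156 CPM. All 3 mutants lay above all 3 wild-type tumours, and the mutants were closer together than the wild type. The means were 128 ± 8.76 and 156 ± 1.5 CPM (SD, n = 3), a log2 fold change of 0.28 (SE 0.0655, adjusted p = 0.149 in edgeR and 0.0332 in DESeq2). Neither of its inhibitors had an unadjusted p under 0.05. Mdm2, which p53 also induces and which thus closes a negative feedback loop, was at 80.6, 90.2 and 84.1 CPM in wild type and 86.4, 82.2 and 88.2 CPM in the mutants, and its log2 fold change was 0.01, with an interval of -0.14 to 0.16. Mdm4 was at 226 to 259 CPM in wild type and 228 to 262 CPM in the mutants, with a log2 fold change of 0.02 (interval -0.17 to 0.22). The ratio of Trp53 to Mdm2 on the TPM scale was 1.99, 1.53 and 1.82 in the wild-type tumours against 2.05, 2.22 and 2.09 in the mutants. These groups did not overlap, as those of Trp53 alone did not. Trp73, a p53 relative with roles in neural development, was the lowest of the class at 0.806 to 2.47 TPM, and stood highest in wild-type replicate 2 at 7.0 CPM. Its log2 fold change of -0.31 turned to 0.24 without that library.

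The p53 protein binds pairs of a 10-base half-site, and the half-site consensus was searched in RefSeq promoter windows (250 bases before to 50 after each start, GRCm38.p6). The consensus is its own reverse complement, so 1 search covers both strands, and no other motif was searched. Of the 31 members with a window, 9 held a match, or 29.0%, against 9.55% of 27025 genes. Matches were held by 4 of the 10 members at an unadjusted p under 0.05 that have a window and by 5 of the 21 others. Of these, 6 are shown, because they set members at an unadjusted p under 0.05 (Trp53, Ccng1, Aen, Sesn1) beside members of the same pathway above it (Mdm2, Bax), with the half-site in capitals and 10 bases on each side.
Trp53: acccacggaaGGACTTGCCCttacttgtta
Ccng1: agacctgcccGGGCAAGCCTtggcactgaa
Aen: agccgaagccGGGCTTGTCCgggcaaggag
Sesn1: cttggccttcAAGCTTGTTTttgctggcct
Mdm2: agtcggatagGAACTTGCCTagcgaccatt
Bax: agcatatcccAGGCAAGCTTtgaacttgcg
The Trp53 stretch lies at chr11:69580274-69580303 on the plus strand, its site beginning 75 bases before the start. The Ccng1 stretch lies at chr11:40755452-40755481 (minus strand, 185 bases before), the Sesn1 stretch at chr10:41887256-41887285 (plus strand, 173 bases before the second of 2 RefSeq starts, which lies inside the gene), and the Aen stretch at chr7:78895927-78895956 (plus strand, beginning 10 bases after the first of 2 RefSeq starts). The Mdm2 stretch lies at chr10:117710925-117710954 (minus strand, 186 bases before) and the Bax stretch at chr7:45467080-45467109 (minus strand, 201 bases before). A match is a description of these letters and not a bound site. Matches were present in members higher in the mutants, in 1 that was lower and in others that were neither.

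Among the 15 p53 targets, 5 were higher and 1 lower at an unadjusted p under 0.05 (Tnfrsf10b, Fas, Phlda3, Aen and Ccng1 against Sesn1), and 9 were neither. In either direction this was 40%, against 18.1% of all genes. DESeq2 called Tnfrsf10b and Aen higher and Sesn1 lower (20%, against 5.7% of all genes). The median log2 fold change of the class was 0.19, beside -0.01 over all tested genes, and 11 of 15 lay above 0. Over the 20 tested genes of a second list of p53 targets, given below, the median was 0.05. Mdm2, Pmaip1, Bbc3 and Bax, which p53 also induces, are counted in other classes. Their log2 fold changes were 0.01, 1.24, -0.28 and -0.08.

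Tnfrsf10b (ENSMUSG00000022074.6, chromosome 14, 69767472 to 69784411), the mouse TRAIL death receptor, had the smallest unadjusted p of all members. It was at 3.06, 3.22 and 2.81 CPM in wild type and 5.03, 4.96 and 6.20 CPM in the mutants. The wild-type values were tight and every mutant stood well above them. The log2 fold change was 0.83 (SE 0.162, 3 of 3 mutants higher, adjusted p = 0.134 in edgeR and 0.00518 in DESeq2), and DESeq2 called it in 6 of 10 alternatives. Fas, the other death receptor here and the lowest of the class at 0.901 to 2.40 TPM, was also higher in each mutant. It was at 0.717, 0.681 and 0.646 CPM in wild type and 1.57, 0.999 and 0.945 CPM in the mutants, from 17 to 41 estimated counts per library. Its groups did not overlap, with mutant replicate 1 highest, a log2 fold change of 0.78 (SE 0.275, adjusted p = 0.222 in edgeR and 0.306 in DESeq2) that was 0.51 without that library and 0.44 on log2(TPM + 1). The added 1 lowers the fold change of a gene at this level, so the last value is not comparable.

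Aen (ENSMUSG00000030609.18, chromosome 7, 78895854 to 78911209) encodes a nuclease that p53 induces. It was at 20.6, 22.8 and 23.5 CPM in wild type and 31.8, 27.2 and 29.5 CPM in the mutants, with no overlap and a log2 fold change of 0.40 (SE 0.0938, adjusted p = 0.149 in edgeR and 0.0226 in DESeq2). Phlda3, which restrains Akt signalling, was at 2.76, 3.18 and 2.89 CPM in wild type and 5.61, 3.76 and 4.23 CPM in the mutants. Mutant replicate 1 again stood highest, giving a log2 fold change of 0.62 (SE 0.195, adjusted p = 0.193 in edgeR). Ccng1, cyclin G1, was at 59.0, 58.9 and 55.7 CPM in wild type and 68.0, 62.2 and 69.9 CPM in the mutants, a log2 fold change of 0.20 (SE 0.0691, adjusted p = 0.21 in edgeR).

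The sestrins, stress-induced proteins that restrain mTORC1, had log2 fold changes of opposite sign. Sesn1 (ENSMUSG00000038332.13, chromosome 10, 41809935 to 41908424) was at 79.0, 78.4 and 76.8 CPM in wild type and 67.5, 65.1 and 66.2 CPM in the mutants. Both groups were tight and did not overlap, a log2 fold change of -0.24 (SE 0.0541, adjusted p = 0.149 in edgeR and 0.0457 in DESeq2). Sesn2 was at 6.38, 14.1 and 7.11 CPM in wild type and 12.1, 29.1 and 11.6 CPM in the mutants. Its groups overlapped, wild-type replicate 2 lying above 2 of the mutants, and the log2 fold change of 0.94 had an interval of -0.12 to 1.99. The ratio of Sesn2 to Sesn1 on the TPM scale was 0.0524, 0.118 and 0.0618 in the wild-type tumours against 0.122, 0.301 and 0.117 in the mutants, also overlapping.

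The other 9 targets, Sesn2 among them, had an unadjusted p above 0.05. Zmat3, an RNA-binding protein of the p53 response, was at 65.9, 68.7 and 60.9 CPM in wild type and 69.7, 71.0 and 72.8 CPM in the mutants. These groups did not overlap, but the log2 fold change was 0.13 with an interval of -0.03 to 0.28. Trp53inp1, which p53 induces and which promotes its activation, was lower in each mutant, at 136, 138 and 136 CPM in wild type and 124, 132 and 117 CPM in the mutants, with a log2 fold change of -0.13 (interval -0.28 to 0.01). Eda2r, a receptor of the TNF receptor family, had a log2 fold change of 0.01 (interval -0.38 to 0.40) and the membrane protein Perp one of -0.05 (interval -0.51 to 0.41). Ei24, an endoplasmic reticulum protein and the highest of the class at 83.6 to 99.7 TPM, was at 99.97, 109 and 94.9 CPM in wild type and 111, 105 and 109 CPM in the mutants (log2 fold change 0.10, interval -0.06 to 0.26). The kinase Plk2, the stress gene Ddit4 and the DNA polymerase Polk had log2 fold changes of 0.41, -0.08 and 0.19, with intervals that all included 0.

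**Figure D2:**
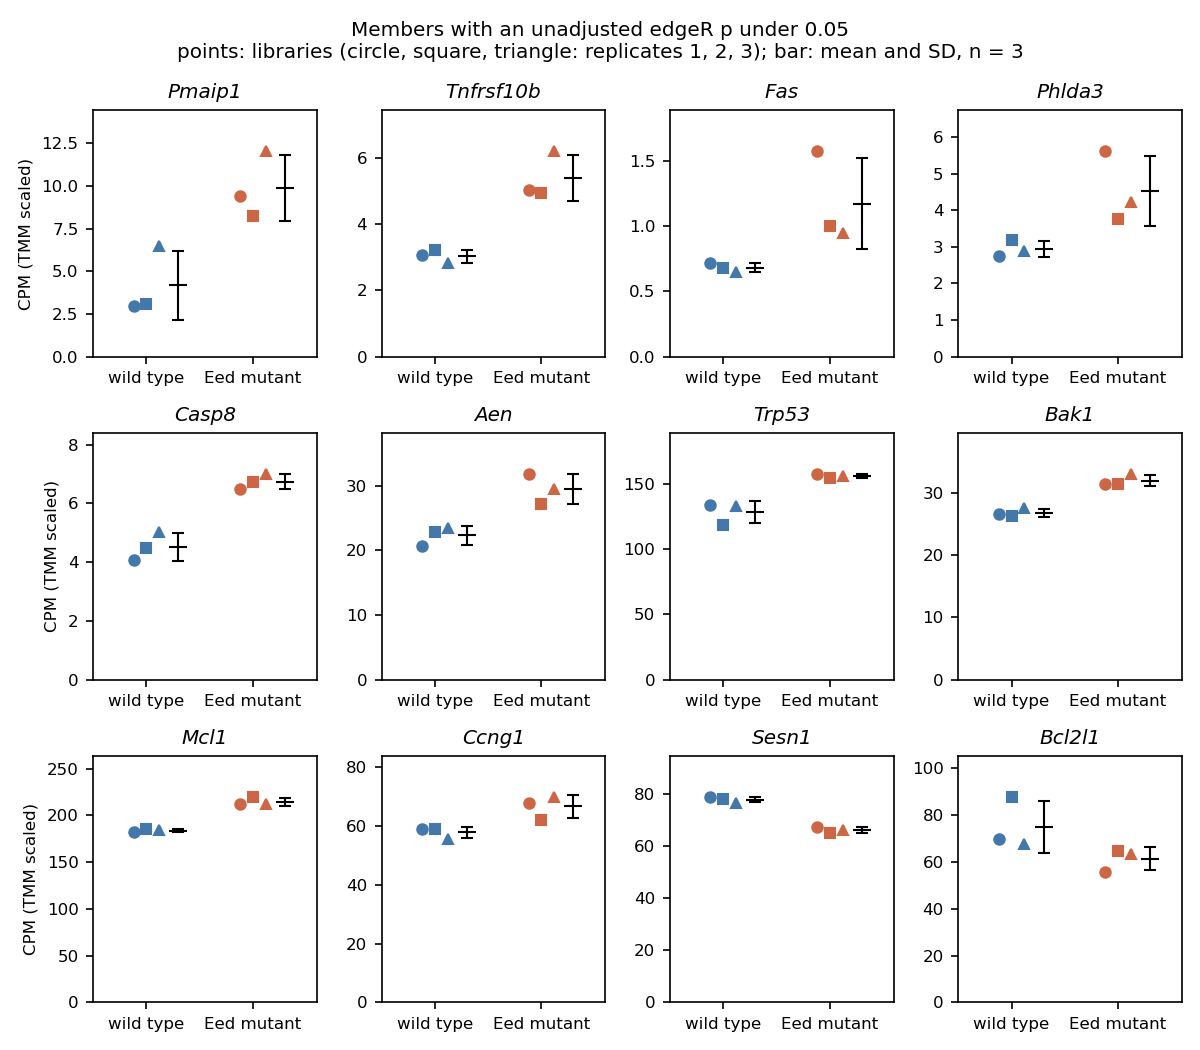
Level in CPM (linear axes from 0) of the 12 members with an unadjusted p under 0.05, in each wild-type (blue) and Eed mutant (orange) library, with mean and SD (n = 3). No group pair overlaps. The largest spread relative to the mean is in wild-type Pmaip1, where replicate 3 stands at 6.50 CPM beside 2.94 and 3.07 CPM, and the tightest groups are Mcl1 and Sesn1 in wild type and Trp53 in the mutants.

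In the BCL2 family, 3 of 12 tested members were higher at an unadjusted p under 0.05 (Pmaip1, Bak1, Mcl1), 1 was lower (Bcl2l1) and 8 were neither. In either direction this was 33.3%, against 18.1% of all genes. The median log2 fold change was -0.03, with 6 members above 0 and 6 below, and effectors, guardians and BH3-only genes each held both signs.

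Pmaip1 (ENSMUSG00000024521.7, chromosome 18, 66458533 to 66465565) encodes Noxa, a BH3-only protein and p53 target that neutralises Mcl1. It had the highest fold change of all members. It was at 2.94, 3.07 and 6.50 CPM in wild type and 9.41, 8.22 and 12 CPM in the mutants. All mutants were above all wild-type tumours, wild-type replicate 3 and mutant replicate 3 being the highest of their groups. The means were 4.17 ± 2.02 and 9.88 ± 1.95 CPM (SD, n = 3), a log2 fold change of 1.24 (SE 0.332, adjusted p = 0.161 in edgeR and 0.00591 in DESeq2), and DESeq2 called it in 7 of 10 alternatives. The summed level of 8 skeletal muscle markers had the same order over the 6 libraries, at 54.3, 58.5 and 102 CPM in wild type and 160, 124 and 373 CPM in the mutants. Most of the wild-type sum was Myod1, at 50.3, 53.3 and 81.5 CPM in wild type and 48.0, 67.5 and 71.9 CPM in the mutants (log2 fold change 0.02). The part of muscle RNA in the Pmaip1 result was not tested. In bulk tumour RNA, fewer cells of a type and less RNA per cell cannot be told apart.

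Bbc3, which encodes Puma, the other BH3-only protein that p53 classically induces, had an unadjusted p above 0.05. It was at 8.15, 10.5 and 7.76 CPM in wild type and 7.03, 8.30 and 6.43 CPM in the mutants, with overlapping groups and a log2 fold change of -0.28 (interval -0.69 to 0.12). The ratio of Pmaip1 to Bbc3 on the TPM scale was 0.224, 0.207 and 0.607 in the wild-type tumours against 0.848, 0.892 and 1.48 in the mutants. The groups of Pmaip1 alone also did not overlap. Bid, which links caspase-8 to the mitochondria, was at 15, 12 and 13.6 CPM in wild type and 11.6, 11 and 11 CPM in the mutants, without overlap (log2 fold change -0.27, interval -0.55 to 0.002). Exons of Bid overlap those of Bcl2l13 on the opposite strand, at 121 to 167 CPM, and without strand reads of the overlap cannot be told apart. Bmf, at 18.9, 25.7 and 30.0 CPM in wild type and 15.4, 20.9 and 21.4 CPM in the mutants, had a log2 fold change of -0.37 with an interval of -0.84 to 0.09. Hrk, a BH3-only gene of neurons, ranged widely among the wild-type tumours (120, 82.6 and 63.0 CPM), and the mutants lay within that range at 102, 93.7 and 94.7 CPM. Bcl2l11, which encodes Bim, and Bad also had an unadjusted p above 0.05, with log2 fold changes of 0.003 (interval -0.21 to 0.21) and -0.07 (interval -0.29 to 0.16). Bik was the lowest member, at 3, 2 and 4 estimated counts in the wild-type tumours against 6, 7 and 5 in the mutants, or 0.145 to 0.51 TPM. No fold is given for it, since its wild-type counts lay about the floor of 3.

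Among the guardians, 1 was higher and 1 lower at an unadjusted p under 0.05. Mcl1 (ENSMUSG00000038612.16, chromosome 3, 95658788 to 95663176), the guardian that Noxa binds, was at 182, 185 and 185 CPM in wild type and 212, 220 and 212 CPM in the mutants. The difference of 0.22 on the log2 scale (SE 0.0521, adjusted p = 0.149 in edgeR and 0.0334 in DESeq2) was small but larger than the spread in either group. Bcl2l1 (ENSMUSG00000007659.18, chromosome 2, 152780668 to 152831728), which encodes Bcl-xL, was at 69.7, 87.6 and 67.4 CPM in wild type and 55.6, 64.7 and 63.3 CPM in the mutants, a log2 fold change of -0.29 (SE 0.116, adjusted p = 0.259 in edgeR and 0.223 in DESeq2). Wild-type replicate 2 was the highest library, and without it the log2 fold change of Bcl2l1 was -0.16 (adjusted p = 0.412 in edgeR). The same library was highest for oligodendrocyte markers, whose summed level was 740, 1620 and 1036 CPM in wild type and 601, 553 and 639 CPM in the mutants. The part of these cells in the Bcl2l1 result was not tested. Bcl2 had an unadjusted p above 0.05, at 28.3 to 30.8 CPM in wild type and 27.6 to 34.5 CPM in the mutants. The ratio of Mcl1 to Bcl2l1 on the TPM scale was 1.76, 1.43 and 1.76 in the wild-type tumours against 2.60, 2.14 and 2.14 in the mutants. This ratio pairs the guardian that was higher with the one that was lower, so it adds no separate result. The 3 guardians summed to 159 to 172 TPM in wild type and 157 to 173 TPM in the mutants.

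Of the pore-forming effectors, Bak1 was at 26.6, 26.4 and 27.6 CPM in wild type and 31.5, 31.5 and 33.1 CPM in the mutants (log2 fold change 0.25, SE 0.0684, adjusted p = 0.161 in edgeR and 0.097 in DESeq2). On the TPM scale its groups overlapped, at 22.0, 23.4 and 19.8 TPM against 22.9, 25.8 and 25.9 TPM. Bak1 exons overlap those of Ggnbp1 on the opposite strand, which was at 7.53 to 9.05 CPM. Bax, a p53 target, was at 44.7, 45.6 and 43.7 CPM in wild type and 42.5, 41.8 and 42.6 CPM in the mutants. All mutants lay below all wild-type tumours, but the log2 fold change was -0.08 with an interval of -0.22 to 0.06. On the TPM scale the level of Bax was 85.6 to 96.7, that of Mcl1 96.4 to 114, and Bax stood above Bak1 in each of the 6 libraries.

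**Figure D3:**
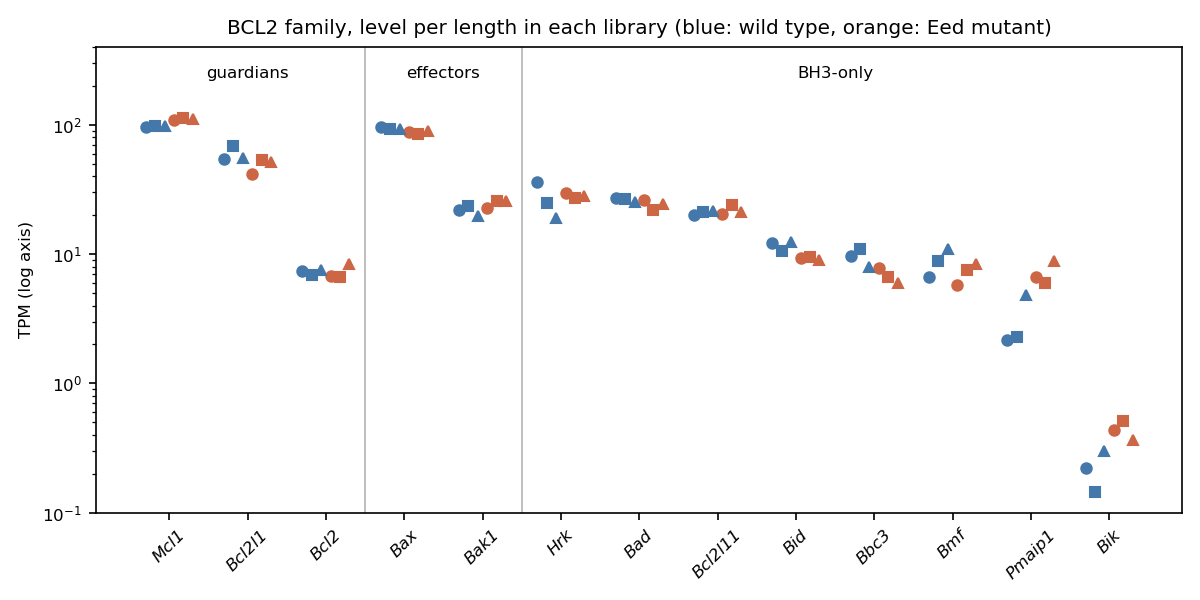
Level per length (TPM, log axis) of the 13 BCL2 family members in each library, blue for wild type and orange for Eed mutant, with replicates 1, 2 and 3 as circle, square and triangle. Mcl1 (96.4 to 114 TPM) and Bax (85.6 to 96.7 TPM) lead, Pmaip1 sits between 2.18 and 8.80 TPM with every mutant above every wild-type library, and Bik lies at or below 0.51 TPM.

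Of the caspases and apoptosome genes, 1 of 5, Casp8, was higher at an unadjusted p under 0.05 and by DESeq2, and the other 4 were neither. At the unadjusted p this was 20%, near the 18.1% of all genes in either direction. Casp8 (ENSMUSG00000026029.14, chromosome 1, 58795374 to 58847503), the initiator caspase of the death receptor route, was at 4.08, 4.47 and 5.02 CPM in wild type and 6.49, 6.72 and 6.99 CPM in the mutants. The groups did not overlap, with a log2 fold change of 0.57 (SE 0.141, adjusted p = 0.152 in edgeR and 0.0344 in DESeq2), which was 0.38 on log2(TPM + 1). Part of that drop comes from the added 1. Casp9, the initiator of the mitochondrial route, was at 28.7, 32.8 and 30.6 CPM in wild type and 25.3, 30.3 and 28.8 CPM in the mutants (log2 fold change -0.13, interval -0.35 to 0.10). Apaf1, the scaffold of the apoptosome, had a log2 fold change of 0.01 (interval -0.19 to 0.20), and Xiap, which inhibits caspases, one of -0.05 (interval -0.20 to 0.10). Cycs, which encodes cytochrome c and was highest of the class per length, was at 72.1, 79.6 and 73.9 CPM in wild type and 80.2, 78.3 and 82.3 CPM in the mutants (log2 fold change 0.09, interval -0.05 to 0.24). Its processed pseudogenes can take part of its reads, so its level is uncertain.

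For the 7 members called by DESeq2 (Trp53, Mcl1, Pmaip1, Casp8, Sesn1, Aen, Tnfrsf10b) the direction held under each alternative fit. Their adjusted p was highest in edgeR without mutant replicate 1, at 0.451 to 0.481. DESeq2 called Trp53 in 5 of 10 alternatives, Aen in 3, Mcl1 and Casp8 in 2 each and Sesn1 in 1.

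Transcript shares were compared within 12 members that have at least 2 transcripts with a mean of 10 counts, 50 transcripts in all. In the 9 genes with annotated isoforms that were listed at first, groups did not overlap for 4 of 42 transcripts on estimated counts and for 1 on TPM. In Aen, Sesn1 and Tnfrsf10b, added after their gene values were seen, they did not overlap for 6 of 8 on estimated counts and for 5 on TPM. Transcripts of the same gene divide the same total, so a rise of 1 share lowers others and these counts are not independent. Over all genes, under the same filter, the share was 12.6% of 42140 transcripts on estimated counts and 12.3% on TPM, and 3 against 3 cannot go below an exact two-sided permutation p of 0.1 (0.5 after Benjamini-Hochberg adjustment). Tnfrsf10b counts came from the coding Tnfrsf10b-201 and from Tnfrsf10b-203, annotated as a retained intron. The coding transcript had 36.9, 36.9 and 39.9 counts in the wild-type tumours against 76.1, 74.0 and 111 in the mutants. For the retained intron the counts were 42.0, 43.0 and 31.9 against 46.9, 48.8 and 50.2. The coding share was thus 45.8%, 43.4% and 53.6% in the wild-type tumours against 58.1%, 57.4% and 67.5% in the mutants (exact permutation p = 0.1). In Aen, the coding Aen-201 took 54.1% ± 2.78 in wild type and 64.6% ± 4.35 in the mutants (SD, n = 3). Its counts were 308, 331 and 316 in the wild-type tumours against 505, 448 and 542 in the mutants, of 546 to 619 and 708 to 828 counts for the whole gene. Sesn1-201 took 80.5% ± 1.62 in wild type and 76.5% ± 1.15 in the mutants, at 1671, 1705 and 1603 against 1336, 1283 and 1364 counts. The longer Sesn1-202 had 365 to 420 and 388 to 422 counts, and on TPM the groups of Sesn1-201 overlapped.

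Trp53-202, a coding transcript, took 17.5%, 18.8% and 16.0% of Trp53 counts in the wild-type tumours against 14.1%, 15.8% and 15% in the mutants, and the main form Trp53-201 took 48.8% to 58.7% over all libraries. Casp8-201 took 19.1% ± 4.67 in wild type and 32.2% ± 7.1 in the mutants, with a gap of under 1 point between wild-type replicate 3 (24.3%) and mutant replicate 3 (24.4%), and overlapping groups on TPM. Genes and transcripts share reads that the estimation step divides, so transcript counts carry more error than gene counts.

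**Figure D4:**
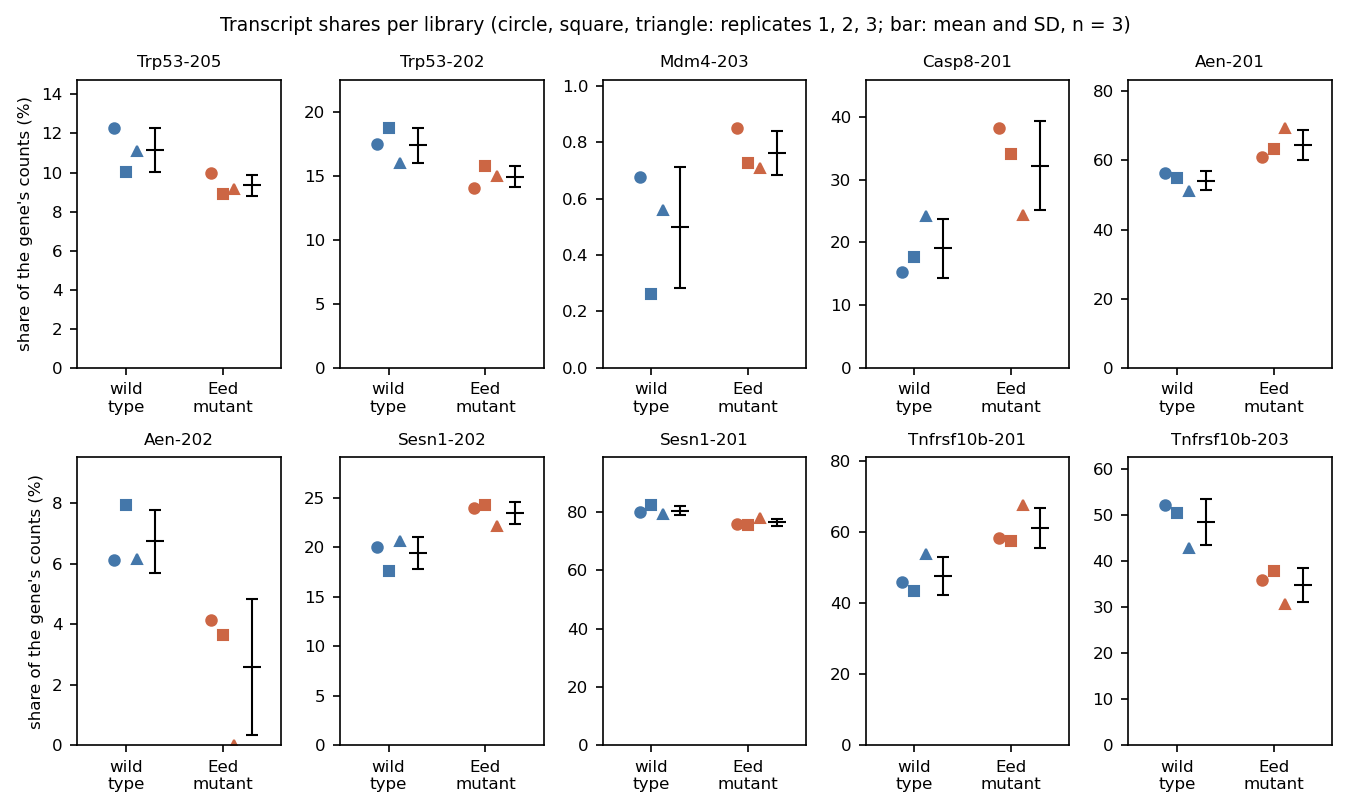
Share of a gene's estimated counts (percent, axes from 0) taken in each library by the 10 transcripts whose groups do not overlap, with mean and SD (n = 3). Tnfrsf10b-201 and Aen-201 stand higher in all 3 mutants and Tnfrsf10b-203, Sesn1-201 and Trp53-202 lower, and in Casp8-201 mutant replicate 3 is level with wild-type replicate 3.

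Other genes of the pathway, 59 from textbook knowledge and no members, gave the surroundings of these values. Of 54 tested, 11 were higher (20.4%, against 9.29% of all genes) and 4 lower (7.41%, against 8.78%) at an unadjusted p under 0.05. DESeq2 called 3 higher and 1 lower of 51 (7.84%, against 5.7% of all genes). Among 20 genes listed as other p53 targets, 5 were higher (25%) and 3 lower (15%). The 5 include Trp63, which encodes a p53 relative and was near the floor. It was at 0.190 to 0.492 CPM in wild type and 0.499 to 1.02 CPM in the mutants. Cdkn1a, which encodes the cell cycle inhibitor p21 and is the best known p53 target, was at 21.3, 29.6 and 30.7 CPM in wild type and 36, 47.2 and 40.9 CPM in the mutants (log2 fold change 0.60, SE 0.162, adjusted p = 0.161 in edgeR and 0.0204 in DESeq2). Btg2, an antiproliferative gene, was at 52.8, 43.2 and 55.8 CPM and 97.7, 64.0 and 85.7 CPM (log2 fold change 0.70). Gadd45a, a growth arrest gene that p53 and other stress factors induce, was lower, at 19.1, 18.1 and 17.5 CPM in wild type and 11.3, 11.7 and 12.7 CPM in the mutants (log2 fold change -0.61, SE 0.0971, adjusted p = 0.116 in edgeR and 0.000168 in DESeq2). Ddb2, a DNA repair target, was also lower, by -0.38 on the log2 scale. Gdf15, a secreted stress factor, was at 0.151 to 0.266 CPM in wild type and at 1.88, 0.691 and 0.643 CPM in the mutants.

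Upstream of p53, 4 of 11 genes (36.4%, against 9.29% of all genes) were higher and none lower at an unadjusted p under 0.05. Hipk2, a kinase that phosphorylates p53, was at 77.7, 76.6 and 79.0 CPM in wild type and 113, 104 and 103 CPM in the mutants (log2 fold change 0.46, SE 0.0592, adjusted p = 0.104 in edgeR and 9.51e-06 in DESeq2, which called it in 10 of 10 alternatives). Without mutant replicate 1 its edgeR adjusted p was 0.423. Chek1, the checkpoint kinase, and Rpl5, a ribosomal protein that can bind Mdm2, had log2 fold changes of 0.26 and 0.34, the latter 0.22 without mutant replicate 1. Cdkn2a, whose Arf product blocks Mdm2, was at 0.189 to 0.642 and 0.576 to 0.960 CPM, with overlapping groups. Of 23 other apoptosis genes, 2 were higher (Birc5 and Tradd), 1 was lower (Endog) and 20 were neither. In either direction this was 13.0%, below the 18.1% of all genes. Tradd, an adaptor of the TNF receptor, was at 3.17, 2.54 and 3.95 CPM in wild type and 4.65, 4.53 and 4.88 CPM in the mutants.

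Several lists of markers of other cells differed between the groups at an unadjusted p under 0.05 in edgeR, the threshold behind the counts here. At that threshold 9.29% of all genes were higher and 8.78% lower. Endothelial markers were higher for 4 of 6 genes and summed to 108 to 143 CPM in wild type and 156 to 164 CPM in the mutants. Oligodendrocyte markers were lower for 7 of 9 and summed to 740 to 1620 and 553 to 639 CPM, and 7 of 8 skeletal muscle markers were higher. Microglial markers were lower for 1 of 9, summing to 218 to 323 and 197 to 244 CPM. Lymphocyte markers, of which 3 of 7 had enough counts to test, summed to 6.66 to 9.74 and 7.30 to 8.83 CPM. Markers of differentiated granule neurons were lower for 4 of 8 (1767 to 2805 and 1394 to 1958 CPM) and Purkinje cell markers for 3 of 4 (544 to 840 and 344 to 484 CPM). Of 6 astrocyte markers 1 was higher and 1 lower, none of 5 red cell markers passed, and 2 of 7 early response genes that handling can induce were higher (134 to 155 and 153 to 160 CPM). Cycling markers were higher for 1 of 7 and summed to 2083 to 2769 and 2653 to 3115 CPM. Of the 11 granule cell progenitor markers, 3 were higher (Atoh1, Gli1 and Ccnd1) and 1 lower (Barhl2). The summed levels of endothelial, muscle, oligodendrocyte and Purkinje markers did not overlap between the groups. No listed marker was at 0 in all libraries. Their part in the differences of Casp8, Fas, Tnfrsf10b and the other members was not tested.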

How the data were processed

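RNA-seq of 6 tumours was from total RNA, per the labels' protocols. The authors deposited kallisto estimated counts and TPM for 131100 transcripts per sample, per the file headers. Version 0.43.1 and builds GRCm38 and mm10 are from the submitters' processing notes. No source used here gives the strand or annotation release. Values were summed per gene, and counts rounded. Coordinates are from GENCODE M21.

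Groups were compared with edgeR 4.0.16 in R 4.3.3 (TMM, default filter, quasi-likelihood F-test, Benjamini-Hochberg over 19145 genes). Standard errors and 95% intervals derive from the F statistic. DESeq2 1.42.0, limma 3.58.1 and other settings were alternatives. The edgeR step was tested on simulated counts. The floor of 3 counts per library (0.114 CPM) covers counting error only.

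The members and all lists were chosen with earlier results of these data known. Full values were given for members at an unadjusted p under 0.05, called by DESeq2 or with groups that do not overlap, for Trp53, and for the highest and lowest TPM per class. Values of other members were chosen after they were seen, as were the transcripts of Aen, Sesn1 and Tnfrsf10b and the 10 DESeq2 alternatives. The TPM ratios between members were not planned, and each follows from the levels of its genes.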

Additional observations from a re-analysis of the deposited data

How the results depend on the processing

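Over 19 members given in full, 303 values under alternatives held their direction except 1, Trp73, whose log2 fold change was 0.24 without wild-type replicate 2 and ranged from -0.66 to 0.24 without 1 library. The count of members called was 0 in edgeR and 0 without any 1 library, 7 with DESeq2 and 12 at an unadjusted p under 0.05. All genes called numbered 0 in edgeR, 923 with DESeq2, 1 with limma-voom, 3 with no filter on low counts, 3459 at an unadjusted p under 0.05, and 0 to 9 without 1 library. Members at an unadjusted p under 0.05 numbered 8 (without mutant replicate 1) to 15 when 1 library was left out, and members whose groups do not overlap 17 to 20, since fewer libraries overlap less. The median log2 fold change of p53 targets was 0.19, and 0.16 on log2(TPM + 1), 0.16 with CPM of at least 1 in 3 samples, 0.16 with sex, and 0.14 to 0.19 without 1 library. That of the BCL2 family, -0.031, was -0.0493 with library size only, 0.00433 with DESeq2 and 0.00416 with no filter (both of which add Bik), -0.0564 on log2(TPM + 1), -0.0539 with the file code and -0.0786 to -0.012 without 1 library. That of caspases and the apoptosome, 0.0061, was -0.0686 on log2(TPM + 1), 0.0491 with the file code and -0.0694 to 0.0717 without 1 library. Transcripts with non-overlapping shares numbered 10, 6 on TPM and 10 to 16 without 1 library.

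With the replicate number as a block, edgeR called 2 members (Pmaip1 and Sesn2) and 273 genes. No label states whether the numbers pair the samples. Deviations from the group means of same-numbered libraries correlated at 0.23, 0.06 and -0.13 over 19145 genes. Those of differently numbered libraries correlated at -0.29 to 0.19. With 3 libraries per group these values cannot decide whether the samples are paired. The file code is a label in the file names of unknown meaning, spread unevenly over the groups. With it as a term DESeq2 called 1 member (Pmaip1) instead of 7, and 634 genes in all (4.07%) instead of 923 (5.7%). Libraries with high Xist were also spread unevenly over the groups. With sex as a term DESeq2 called 2 members (Pmaip1 and Tnfrsf10b) and 380 genes (2.17%). Trp53, Mcl1, Casp8, Sesn1 and Aen were then not called. With the replicate number as a block DESeq2 called 3 members (Trp53, Pmaip1 and Sesn2) and 1066 genes (7.13%). Without wild-type replicate 3 the log2 fold change of Zmat3 was 0.08 and that of Ei24 0.05. At this depth Bik could not be tested.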

Other observations

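Xiap and Eda2r are X-linked, and both groups hold libraries with high Xist and with low Xist. Xiap was at 148, 144 and 140 CPM in wild-type replicate 3 and the first and second mutant replicate, which had high Xist, and 141, 139 and 130 CPM in the others. Eda2r was at 58.3, 62.4 and 49.9 CPM and at 60.7, 41.2 and 49.0 CPM. The ranges overlapped for both genes.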
